A study of Mus musculus with 6 samples.

Results

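Matrix glycoproteins and proteoglycans are the proteins that fill the space between the collagen fibers of a tissue. The 10 genes described here are Fn1, Tnc, Postn, Spp1, Bgn, Dcn, Lum, Vcan, Fbn1 and Eln. They were taken by gene symbol from a table of 22880 genes, and all 10 had a row. Of these, 9 passed the filter on low counts and were tested among 12014 genes, and Eln did not.

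Fibronectin (Fn1), tenascin C (Tnc), periostin (Postn) and osteopontin (Spp1) are secreted glycoproteins that bind integrins and change how cells adhere and migrate. Biglycan (Bgn), decorin (Dcn) and lumican (Lum) are small leucine-rich proteoglycans that bind collagen fibrils, and versican (Vcan) is a large proteoglycan that binds hyaluronan. Fibrillin-1 (Fbn1) builds microfibrils, onto which elastin (Eln) is deposited in elastic fibers. In colon tumors most of this matrix is attributed to fibroblasts, while carcinoma cells can also make fibronectin, tenascin C and osteopontin.

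The RNA came from MC-38, a mouse colon carcinoma line that carries green fluorescent protein (GFP), grown as orthotopic tumors in the cecum wall. GFP-positive cells without CD45, which marks leukocytes, or CD31, which marks endothelium, were sorted from the tumors and gave 3 libraries of Mock cells and 3 of HIF-KD cells. Both groups carried the lentiviral vector pLKO.1-puro and had not been passaged in vivo. HIF-KD cells have a knockdown of Hif1a, which encodes the oxygen-regulated subunit of the transcription factor HIF-1, so the comparison asks which transcripts of the tumor cells depend on it. The labels do not say whether each library comes from a separate tumor, so the p-values measure the spread between these 6 samples.

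The authors deposited normalized counts, that is, reads per gene divided by 1 factor per library. Between 19845852 and 30809139 reads per library fell on genes. Hif1a had 6914, 5424 and 4945 normalized counts in the Mock libraries against 697.3, 3142 and 1928 in the HIF-KD libraries. The groups did not overlap, and the log2 fold change was -1.82 (SE 0.46, limma adjusted p = 0.219). Of 9 epithelial markers, 8 had a mean below 1 FPKM (fragments per kilobase of gene length, scaled to the reads of the library), among them Epcam with 0.197 FPKM, so the defining markers of an epithelial carcinoma were close to absent. Library HIF-KD 3 stood apart by 15 markers of macrophages and other leukocytes, whose FPKM summed to 578 there against 107 to 197 in the other libraries.

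Of the 9 genes tested, 0 differed between HIF-KD and Mock at an adjusted p below 0.05, where 0.391% of all genes tested did. These values come from limma on log2(normalized count + 1) with Benjamini-Hochberg adjustment over all genes tested, and the adjusted p of the 9 genes ran from 0.379 to 0.934. At an unadjusted p below 0.05 the test called 1 of the 9, Tnc, where it called 12.7% of all genes. The quasi-likelihood test of edgeR called 0 of the 9 at either limit, where it called 0.391% of all genes at the adjusted and 12.4% at the unadjusted limit. The Wald test of DESeq2 called 0 of the 9 at the adjusted limit (2.36% of all genes) and 2 at the unadjusted limit (13.0% of all genes), Tnc and Spp1. In none of the 9 genes did every HIF-KD library lie on one side of every Mock library, as it did in 19.2% of all genes tested. The log2 fold change (HIF-KD minus Mock) was above 0 in 6 genes and below 0 in 3, with a median of 0.23 against 0.02 over all genes tested.

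**Figure D1:**
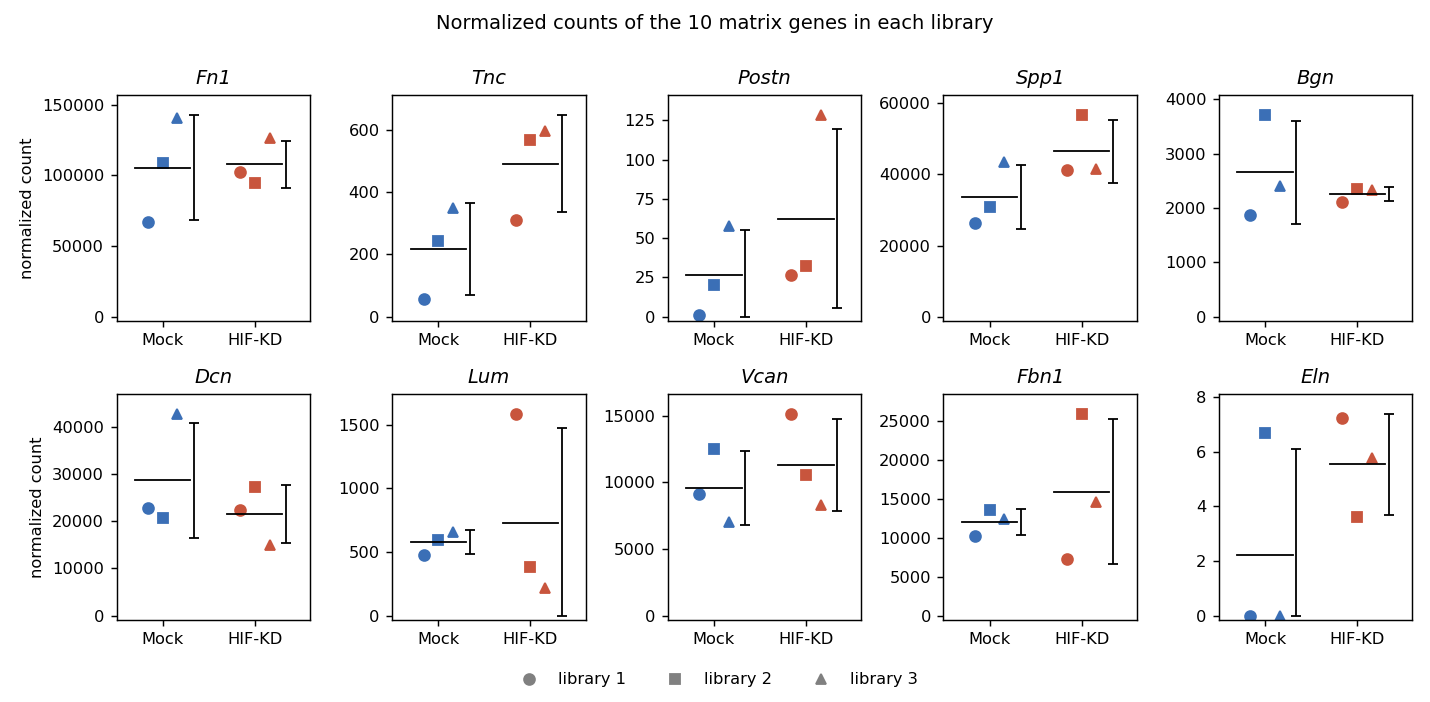
Normalized counts of the 10 genes (vertical axes, starting near 0 and different for each gene) in the 3 Mock (blue) and 3 HIF-KD (red) libraries. Point shapes stand for the library number, horizontal lines for the group means and bars for 1 SD (n = 3), whose lower ends stop at 0; for each of the 10 genes at least 1 library of one group lies within the range of the other.

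Integrins recognize fibronectin and osteopontin through the tripeptide arginine-glycine-aspartate, so the coding sequences of the 10 genes were searched for it. In the longest complete coding transcript of each gene in GENCODE M21 (GRCm38), 2 sites were found in Fn1, 1 in Spp1 and 1 in Fbn1, and none in the other genes. The 27 bases around each site are shown because this motif is the feature that the 3 genes share. Capitals mark the 3 codons of the tripeptide.
Fn1, codons from 1614, chr1:71606737-71606763, minus strand: gtcactggcCGTGGGGACagtccagca
Fn1, codons from 2181, chr1:71597434-71597460, minus strand: catgttcccAGGGGAGACgtagactac
Spp1, codons from 145, chr5:104439472-104439498, plus strand: cccaacggcCGAGGTGATagcttggct
Fbn1, codons from 1543, chr2:125345964-125345990, minus strand: atccgacccCGGGGAGACaatggagat
Each of the 4 sites spells the same 3 amino acids with a different set of codons. The sites are a description of the reference sequence and were not measured in these cells.

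Fn1 encodes fibronectin, which cells assemble into fibrils that other matrix proteins attach to (ENSMUSG00000026193, chromosome 1, 71585520 to 71653200, minus strand). Its normalized counts were 66660, 108800 and 140700 in Mock and 102200, 94860 and 126700 in HIF-KD. The 3 HIF-KD libraries lay inside the range of the Mock libraries, which differed 2.11-fold among themselves. The means were 105387 ± 37138 and 107920 ± 16673 (SD, n = 3), and the log2 fold change was 0.09 (95% interval -0.53 to 0.71, limma adjusted p = 0.919). Without Mock 1 the log2 fold change of Fn1 was -0.21 and without HIF-KD 3 it was -0.03, so its sign rested on single libraries.

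Spp1 encodes osteopontin, a secreted phosphoprotein that tumor cells and macrophages both make (ENSMUSG00000029304, chromosome 5, 104435118 to 104441050, plus strand). It had 26250, 30930 and 43560 normalized counts in the Mock libraries against 41200, 56670 and 41520 in the HIF-KD libraries. Mock 3 exceeded HIF-KD 1 and HIF-KD 3, while the other Mock libraries lay below all HIF-KD libraries. Spp1 had a log2 fold change of 0.48 (95% interval -0.02 to 0.99, SE 0.22), or 1.40-fold, with a limma adjusted p of 0.407. It stayed between 0.32 and 0.69 when any 1 library was left out. The leukocyte markers peaked in HIF-KD 3, where Spp1 had 41520 normalized counts, and without that library the log2 fold change of Spp1 was 0.56.

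Tnc encodes tenascin C, a large matricellular protein that is scarce in resting adult tissue and common in tumor stroma (ENSMUSG00000028364, chromosome 4, 63959785 to 64047015, minus strand). Its normalized counts were 56.63, 244 and 349.1 in Mock and 312.1, 567.2 and 596 in HIF-KD, from between 46 and 516 reads. Mock 1 was far below the rest, HIF-KD 2 and HIF-KD 3 were above all other libraries, and HIF-KD 1 lay below Mock 3. The means were 217 ± 148 in Mock and 492 ± 156 in HIF-KD (SD, n = 3). HIF-KD exceeded Mock by 1.48 on the log2 scale (SE 0.60, 95% interval 0.11 to 2.84), or 2.78-fold, with an unadjusted p of 0.0377 and an adjusted p of 0.379 in limma. This was the smallest p of the 9 genes, and it failed the correction over all genes tested. Without Mock 1 the log2 fold change fell to 0.69 (limma adjusted p = 0.632), and over all 6 such omissions it lay between 0.69 and 1.99. With all 6 libraries the log2 fold change of Tnc was 1.16 with edgeR (unadjusted p = 0.0606) and 1.17 with DESeq2. A gene on the opposite strand, 8030451A03Rik, covers 67162 bases of the Tnc locus and has no row in the table. Whether the counting used strand is not given in the sources used here, so its part in the Tnc counts was not tested.

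Postn encodes periostin, a matricellular protein that binds collagen and integrins and is made mainly by activated fibroblasts (ENSMUSG00000027750, chromosome 3, 54361109 to 54391037, plus strand). It had 1.231, 20.1 and 57.98 normalized counts in the Mock libraries against 26.54, 32.37 and 128.2 in the HIF-KD libraries. These came from 1, 21 and 48 reads in Mock and 33, 27 and 111 reads in HIF-KD. As for Tnc, Mock 1 was lowest and HIF-KD 3 highest, and Mock 3 lay above HIF-KD 1 and HIF-KD 2. On the log2 scale the difference was 1.81 (95% interval -0.74 to 4.35, limma adjusted p = 0.541). It was 1.21 with edgeR, 1.23 with DESeq2 and 1.07 with a pseudocount of 10. Without Mock 1, which held 1 read, it was 0.48, without Mock 3 it was 2.84 and without HIF-KD 3 it was 1.11, so the size of the Postn difference was not settled by these libraries.

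The 2 genes with the largest log2 fold changes, Tnc and Postn, were also both lowest in Mock 1. The summed FPKM of 12 fibroblast and pericyte markers was lowest in Mock 1 too, with 90.2 against 92.5 and 110 in the other Mock libraries and 107 to 138 in HIF-KD. In HIF-KD 3, where Tnc and Postn were highest, the sum was 107, the lowest of its group. Of 9 such markers tested, 3 were higher in HIF-KD at an unadjusted p below 0.05 in limma and 0 at an adjusted p below 0.05. Fewer cells of a type and less RNA per cell cannot be told apart in such samples, and the part of other cells in these differences was not tested.

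Bgn encodes biglycan, whose core protein carries chondroitin or dermatan sulfate chains (ENSMUSG00000031375, chromosome X, 73483602 to 73495933, plus strand). Its normalized counts were 1872, 3710 and 2399 in Mock and 2109, 2342 and 2329 in HIF-KD. The HIF-KD libraries differed only 1.11-fold and lay within the Mock range, which spanned 1.98-fold. The log2 fold change of Bgn was -0.18 (95% interval -0.71 to 0.35, limma adjusted p = 0.792), and without Mock 2 it was 0.091.

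Dcn encodes decorin, a proteoglycan that spaces collagen fibrils and binds growth factors (ENSMUSG00000019929, chromosome 10, 97479609 to 97518143, plus strand). It had 22750, 20610 and 42580 normalized counts in the Mock libraries against 22360, 27140 and 15050 in the HIF-KD libraries. Mock 3 was the highest and HIF-KD 3 the lowest, and the other 4 libraries were intermixed. For Dcn the log2 fold change was -0.38 (95% interval -1.07 to 0.32, limma adjusted p = 0.646). Without Mock 3 it was -0.05.

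Lum encodes lumican, which also regulates collagen fibrils and lies next to Dcn on chromosome 10, 46984 bases downstream (ENSMUSG00000036446, 97565128 to 97572703, plus strand). Its normalized counts were 480.1, 598.1 and 659.5 in Mock and 1581, 384.9 and 221.8 in HIF-KD. HIF-KD 1 was above and HIF-KD 2 and HIF-KD 3 were below all Mock libraries, a 7.13-fold range within HIF-KD against 1.37-fold within Mock. The log2 fold change of Lum was -0.16 (95% interval -1.52 to 1.20, limma adjusted p = 0.934), although the mean of the normalized counts was higher in HIF-KD (729 ± 742) than in Mock (579 ± 91.2; SD, n = 3). Without HIF-KD 1 the log2 fold change was -0.97 (limma adjusted p = 0.247), and without HIF-KD 3 it was 0.44. Dcn and Lum were both lowest in HIF-KD 3, and they were highest in different libraries, Dcn in Mock 3 and Lum in HIF-KD 1.

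Vcan encodes versican, whose chains and hyaluronan-binding end form loose, hydrated matrix (ENSMUSG00000021614, chromosome 13, 89655312 to 89742509, minus strand). It had 9168, 12500 and 6998 normalized counts in the Mock libraries against 15110, 10540 and 8309 in the HIF-KD libraries. HIF-KD 1 was highest and Mock 3 lowest, and Mock 2 lay above the other 2 HIF-KD libraries. For Vcan the log2 fold change was 0.24 (95% interval -0.36 to 0.84, limma adjusted p = 0.745), and it was 0.01 without HIF-KD 1.

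Fbn1 encodes fibrillin-1, the main protein of microfibrils (ENSMUSG00000027204, chromosome 2, 125300594 to 125507993, minus strand). Its normalized counts were 10290, 13520 and 12350 in Mock and 7289, 25830 and 14630 in HIF-KD. HIF-KD 1 was below and the other 2 HIF-KD libraries were above all Mock libraries, a 3.54-fold range within HIF-KD and 1.31-fold within Mock. The log2 fold change of Fbn1 was 0.23 (95% interval -0.65 to 1.10, limma adjusted p = 0.837). Without HIF-KD 2 it was -0.21 and without HIF-KD 1 it was 0.70.

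Eln encodes tropoelastin, the precursor of elastin (ENSMUSG00000029675, chromosome 5, 134702593 to 134747323, minus strand). It had 0, 7 and 0 reads in Mock and 9, 3 and 5 reads in HIF-KD, and a library with 0 reads allows up to 3. The highest Mock library lay between the HIF-KD libraries. An exact two-sided permutation test on log2(normalized count + 1) gave p = 0.3, where 3 libraries against 3 allow no p below 0.1. No call was therefore possible for Eln with this test, whatever the depth.

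**Figure D2:**
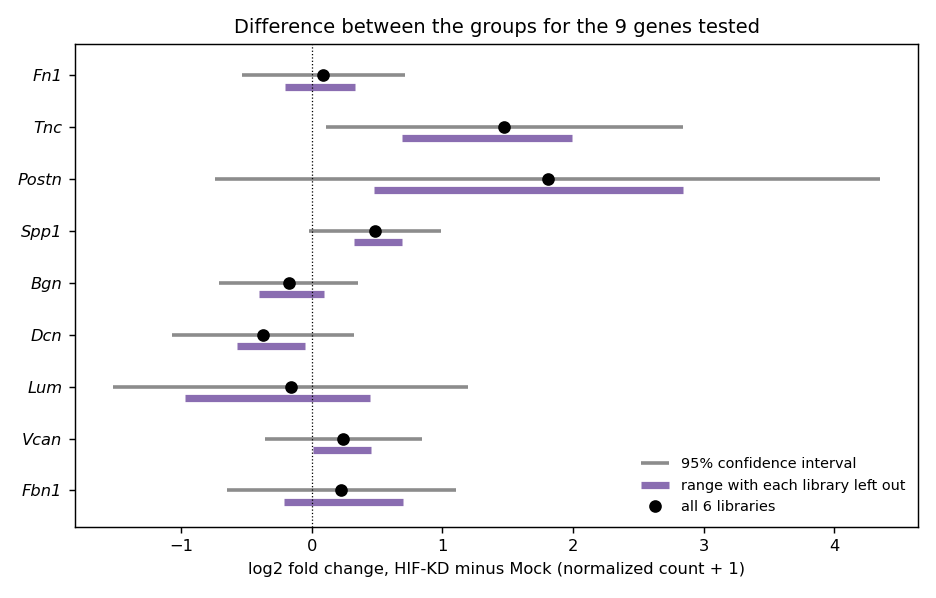
Log2 fold change of the 9 genes tested (HIF-KD minus Mock; horizontal axis) with the 95% confidence interval of limma (gray) and the range over the 6 fits that each omit 1 library (purple). The interval excludes 0 for Tnc alone, before correction over all genes tested, and the purple range crosses 0 for Fn1, Bgn, Lum and Fbn1.

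Leaving out single libraries moved which genes were separated between the groups, and with 3 libraries against 2 separation is easier to reach. Without Mock 3, the HIF-KD libraries of Tnc, Postn and Spp1 lay above all remaining Mock libraries, and these 3 of the 9 genes had an unadjusted p below 0.05 in limma. In that fit 31.1% of all genes tested were separated and 11.8% had such a p. Without HIF-KD 1 the same held for Tnc and Fbn1, which were higher, and for Lum, which was lower, where 30.8% of all genes were separated and 11.8% had such a p. Without Mock 1 only Bgn was separated (26.0% of all genes), with the HIF-KD libraries below the 2 remaining Mock libraries, and 0 of the 9 had an unadjusted p below 0.05 (8.43% of all genes). Without Mock 2 none was separated (31.0% of all genes) and Tnc alone had such a p (12.8% of all genes). Without HIF-KD 2 (26.6% separated and 8.78% with such a p over all genes) and without HIF-KD 3 (30.8% and 11.5%) both counts were 0. Under each of these 6 omissions 0 of the 9 genes passed at an adjusted p below 0.05 in limma.

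The libraries of one group differed more in these genes than in most others. On the log2 scale, the within-group SD had a median of 0.51 over the 9 genes, against 0.25 over all genes tested, and all 9 lay above the latter. Postn had the widest spread (SD 1.91, percentile 99.8 of all genes tested), followed by Lum (SD 1.04, percentile 96.9) and Tnc (SD 1.04, percentile 96.8). Spp1 had the narrowest (SD 0.32, percentile 64.9), with Bgn next (SD 0.36, percentile 70.4). Fn1, Dcn, Vcan and Fbn1 lay at percentiles 77.2, 83.8, 78.2 and 89.9. With this spread the median size of the log2 fold change was 0.24 for the 9 genes and 0.22 for all genes tested.

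**Figure D3:**
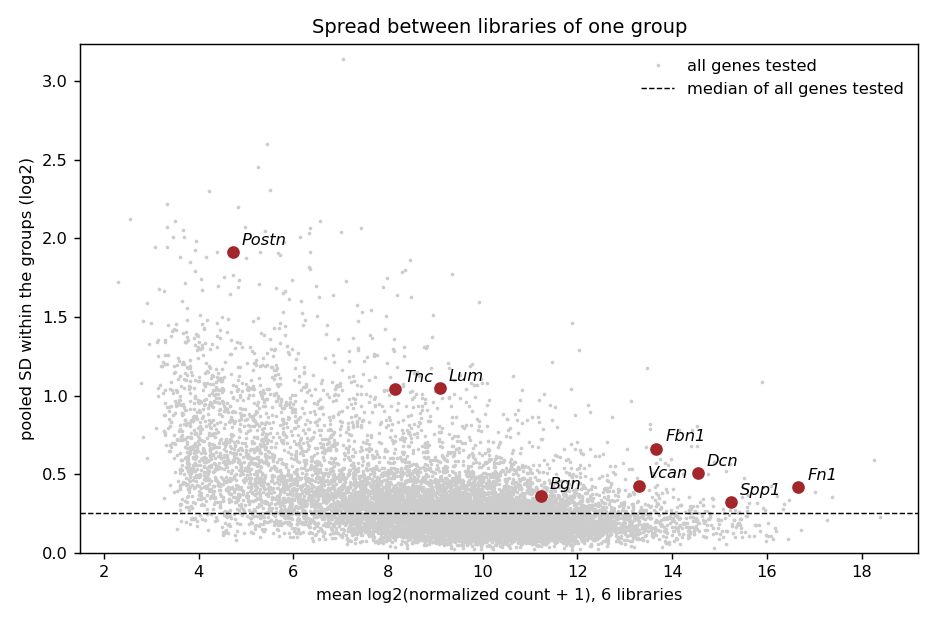
Within-group SD, in log2 units (vertical axis), against the mean log2(normalized count + 1) over the 6 libraries (horizontal axis) for all 12014 genes tested (gray) and the 9 matrix genes (red). All 9 lie above the dashed line at 0.25, the median of all genes, and Postn is highest with 1.91.

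Mock 1 held the lowest value of Fn1, Tnc, Postn, Spp1 and Bgn, 5 of the 9, and it held the lowest value of 27.1% of all genes tested. The highest values were spread over 5 libraries, those of Fn1 and Dcn in Mock 3, Bgn in Mock 2, Lum and Vcan in HIF-KD 1, Spp1 and Fbn1 in HIF-KD 2 and Tnc and Postn in HIF-KD 3. HIF-KD 1, the library with the lowest Hif1a count (697.3), held the highest Lum and Vcan and the lowest Fbn1. The 10 genes together took 0.536% of the reads in Mock 1 and 0.977% in Mock 3, and between 0.776% and 0.918% in HIF-KD. Fn1 alone made up 0.260% to 0.551% of the reads of a library.

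**Figure D4:**
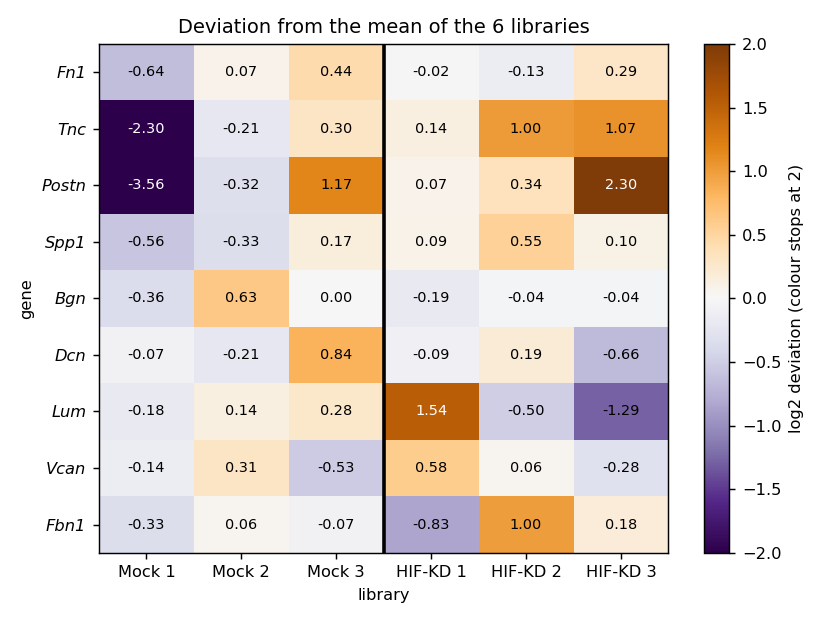
Deviation of log2(normalized count + 1) from the mean of the 6 libraries for the 9 genes tested (rows) in each library (columns; the line parts Mock from HIF-KD). Mock 1 is lowest for Tnc (-2.30) and Postn (-3.56), and Lum ranges from 1.54 in HIF-KD 1 to -1.29 in HIF-KD 3.

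Levels of different genes can be compared only per length. By the deposited FPKM, Spp1 was highest with a mean of 1543 over the 6 libraries, followed by Fn1 (1063 FPKM), Dcn (552 FPKM), Vcan (109 FPKM), Fbn1 (72.6 FPKM) and Bgn (68.8 FPKM). Lum (12.7 FPKM), Tnc (2.44 FPKM), Postn (0.803 FPKM) and Eln (0.0624 FPKM) were much lower. Spp1 ranked between 22 and 126 and Fn1 between 73 and 169 among all genes of a library. Spp1 exceeded Fn1, Fn1 exceeded Dcn and Dcn exceeded Vcan in 6 of 6 libraries. Vcan exceeded Fbn1 in 5 of 6, and Fbn1 exceeded Bgn in 3 of 6, so the order of the latter pair was not resolved.

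The order in the middle also depended on the length used. For genes such as Fn1 (4090 bases) and Vcan (3890 bases) the deposited length was close to the mean over the listed transcripts, of 4086 and 3885 bases, while their longest transcripts have 8315 and 12427 bases. Lum was an exception, with 2080 bases deposited and a single transcript of 2448 bases, and so was Eln, with 2580 bases against a mean of 2744. Divided instead by the merged exon length of GENCODE M21, a choice made after the data were seen, Spp1 had a mean of 992 FPKM, Fn1 372, Dcn 174, Fbn1 47.3, Vcan 29.4 and Bgn 16.5. Fbn1 then exceeded Vcan in 5 of 6 libraries, the reverse of the deposited order. The ranking of Spp1, Fn1 and Dcn at the top and of Lum, Tnc, Postn and Eln at the bottom was the same with both lengths.

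**Figure D5:**
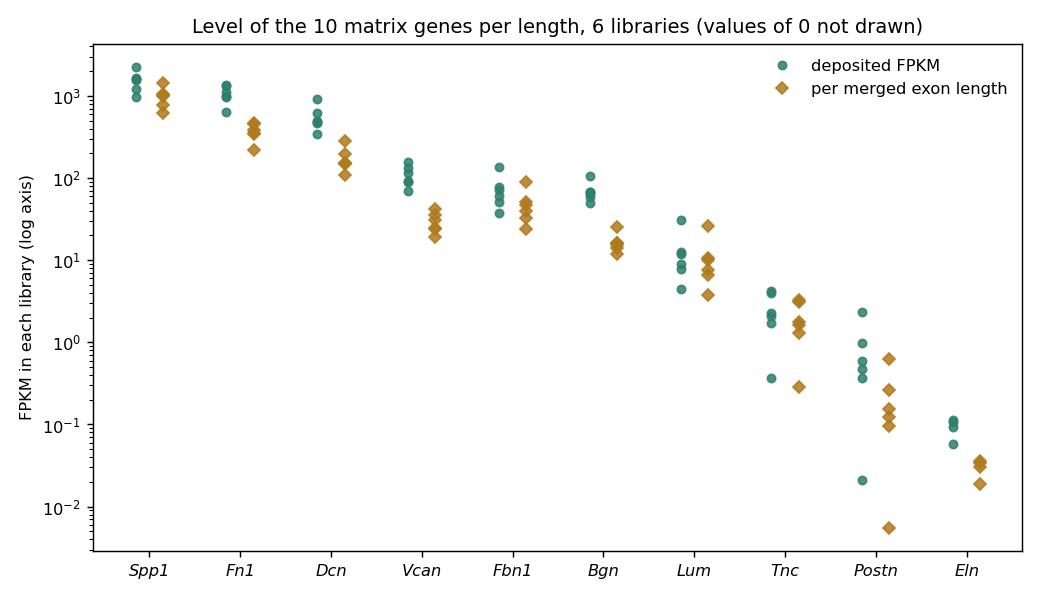
FPKM of the 10 genes in each of the 6 libraries (vertical log axis) with the deposited gene length (circles) and the merged exon length (diamonds); the 2 libraries with Eln at 0 are not drawn. With the deposited length, levels run from 2247 for Spp1 in HIF-KD 2 down to 0.0211 for Postn in Mock 1, with the drawn values of Eln between 0.0586 and 0.113, and Vcan and Fbn1 change places between the lengths.

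HIF-1 binds the core motif ACGTG or GCGTG, so the 250 bases before the transcription start were searched for it on both strands. RefSeq promoters of GRCm38.p6 were matched by symbol for 6 of the 10 genes (Tnc, Postn, Spp1, Bgn, Vcan and Fbn1) with 9 start sites. The window of Fbn1 lay wholly within exons that GENCODE lists for Fbn1 itself, and 79 bases of the window of the second Tnc start site lay within Tnc exons, so these are not purely upstream sequence. Of all 32851 promoter windows of this length, 38.6% held a match, and of the 6 genes only Bgn did, with GCGTG beginning 199 bases before its start. The windows of Bgn and of Tnc, the gene with the smallest p, are shown, with the match in capitals.
Bgn, chrX:73483351-73483600, plus strand: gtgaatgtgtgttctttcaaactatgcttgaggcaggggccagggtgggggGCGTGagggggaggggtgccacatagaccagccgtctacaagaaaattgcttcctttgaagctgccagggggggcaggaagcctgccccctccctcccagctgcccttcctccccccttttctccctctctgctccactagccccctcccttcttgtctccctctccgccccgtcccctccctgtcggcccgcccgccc
Tnc, first start site, chr4:64047016-64047265, minus strand: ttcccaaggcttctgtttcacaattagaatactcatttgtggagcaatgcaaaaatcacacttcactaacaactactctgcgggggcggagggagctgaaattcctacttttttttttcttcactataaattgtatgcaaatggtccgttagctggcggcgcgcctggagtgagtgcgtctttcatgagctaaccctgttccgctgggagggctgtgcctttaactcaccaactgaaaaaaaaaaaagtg
A match is a description of the letters, and binding was not measured. Bgn, which has the match, had a log2 fold change of -0.18, and Tnc, which has none in this window, had 1.48.

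Of 96 genes in 6 lists of related genes, 65 were tested and 1 passed at an adjusted p below 0.05, where 0.391% of all genes did. At an unadjusted p below 0.05, 6 were higher and 2 were lower, 12.3% of those tested against 12.7% of all genes. At the adjusted limit edgeR called 0 of them (0.391% of all genes) and DESeq2 called 2, Sdc4 and Xylt1, where it called 2.36% of all genes. The gene that passed in limma was Sdc4, which encodes syndecan-4, a heparan sulfate proteoglycan of the cell surface that serves as a fibronectin co-receptor. Its normalized counts were 6778, 5891 and 7705 in Mock and 3662, 3336 and 3796 in HIF-KD. Every HIF-KD library lay below every Mock library, and the log2 fold change was -0.91 (SE 0.15, limma adjusted p = 0.0447). The adjusted p of Sdc4 was 0.0501 with edgeR, 0.170 in limma without the mean-variance trend, and 2.99e-05 with DESeq2. When any 1 library was left out, the limma adjusted p of Sdc4 ran from 0.0826 to 0.195, while its log2 fold change stayed between -1.01 and -0.81.

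Of 14 receptors that bind these matrix proteins, 11 were tested, 3 with a log2 fold change above 0 and 8 below. Itgb5, the integrin beta 5 chain, which pairs with alpha v to bind fibronectin and osteopontin motifs, had a log2 fold change of 0.50 (limma adjusted p = 0.373). Egfr had -0.64 (limma adjusted p = 0.587). Neither passed the correction.

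Of 20 other matricellular and adhesive glycoproteins, 14 were tested and 0 passed in limma. Of the 14, 2 had an unadjusted p below 0.05, as did 12.7% of all genes. Tgfbi, which encodes an integrin-binding matrix protein, had 5356, 5468 and 4642 normalized counts in the Mock libraries against 8958, 7928 and 6031 in the HIF-KD libraries. Its groups did not overlap, and the log2 fold change was 0.55 (SE 0.17, limma adjusted p = 0.287). Sparcl1 had a log2 fold change of 1.61 (limma adjusted p = 0.379). Thbs2, which encodes the angiogenesis inhibitor thrombospondin 2, had 0.81 (limma adjusted p = 0.422), and its groups overlapped.

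Of 12 other small leucine-rich proteoglycans, 3 were tested and 0 passed in limma. Of the 3, 1 had an unadjusted p below 0.05, as did 12.7% of all genes. Ogn, which encodes osteoglycin, had 1831, 1497 and 1423 normalized counts in the Mock libraries against 178.6, 724.2 and 1357 in the HIF-KD libraries. Every HIF-KD library was below every Mock library, HIF-KD 3 by the least, and the log2 fold change was -1.49 (SE 0.61, limma adjusted p = 0.377). Aspn (log2 fold change -1.52, limma adjusted p = 0.547) was low in HIF-KD 1 alone, with a normalized count of 20.11 against 309.2 to 462.9 in the others. Podnl1 had a log2 fold change of 0.26 (limma adjusted p = 0.767).

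Of 14 hyaluronan and versican partners, 7 were tested and 0 passed in limma. Of the 7, 1 had an unadjusted p below 0.05, as did 12.7% of all genes. Has2, the synthase of the hyaluronan that versican binds, had 118.2, 152.2 and 35.03 normalized counts in the Mock libraries against 415.8, 250.6 and 132.8 in the HIF-KD libraries. Mock 2 lay above HIF-KD 3, and the log2 fold change was 1.47 (SE 0.58, limma adjusted p = 0.364). Hapln4 had 0.44 (limma adjusted p = 0.652) and Hyal1 had -0.34 (limma adjusted p = 0.660).

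Of 16 genes of microfibril and elastic fiber assembly, 13 were tested. In limma 0 had an adjusted or an unadjusted p below 0.05 (0.391% and 12.7% of all genes). The smallest p belonged to Fbln5, which encodes an elastin-binding fibulin (log2 fold change 0.90, limma adjusted p = 0.488), and Ltbp1, which encodes a TGF-beta binding protein of microfibrils (log2 fold change -0.66, limma adjusted p = 0.504). Adamts10 had 0.55 (limma adjusted p = 0.584).

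Of 20 enzymes that build the glycosaminoglycan linkage and chondroitin sulfate chains, 17 were tested and 0 passed in limma. The log2 fold change was above 0 in 15 of them, with a median of 0.19 against 0.02 over all genes tested. Of the 17, 2 had an unadjusted p below 0.05, as did 12.7% of all genes. Xylt1, which adds the first sugar of the chain to the core protein, had 7.386, 9.57 and 12.08 normalized counts in the Mock libraries against 137.5, 22.78 and 25.41 in the HIF-KD libraries. Every HIF-KD library was above every Mock library, HIF-KD 1 by the most, and the log2 fold change was 2.08 (SE 0.69, limma adjusted p = 0.302; DESeq2 adjusted p = 0.0372). Fam20b, the kinase that phosphorylates the linkage xylose, had a log2 fold change of 0.45 (SE 0.16, limma adjusted p = 0.318), and its groups did not overlap either. Chpf2 had 0.37 (limma adjusted p = 0.469).

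Marker genes of other cells were measured beside these values, and neither edgeR nor DESeq2 called any of them at an adjusted p below 0.05. The 12 fibroblast and pericyte markers were led by Pdgfrb (31.9 FPKM on average), Pdgfra (31.5 FPKM) and Prrx1 (27.5 FPKM). Of the 9 tested, 0 passed in limma and 3 were higher at an unadjusted p below 0.05, where 12.7% of all genes had such a p in either direction. Pdgfrb was one, with a log2 fold change of 0.59 (limma adjusted p = 0.387), and the other two, named after their values were seen, were the pericyte markers Cspg4 and Rgs5. Cspg4 had 300.4, 702.4 and 1417 normalized counts in the Mock libraries against 2032, 1905 and 1489 in the HIF-KD libraries, a log2 fold change of 1.42 (limma adjusted p = 0.296). Rgs5 had 16, 30.62 and 27.78 against 66.76, 40.77 and 58.91, a log2 fold change of 1.15 (limma adjusted p = 0.315). Neither gene overlapped between the groups, and both were lowest in Mock 1. Of the 9 tested, 7 had a log2 fold change above 0 and 2 below, Dpt with -0.83 (limma adjusted p = 0.803) and Col14a1 with -0.85 (limma adjusted p = 0.726), also named after their values were seen. Pdgfra had a log2 fold change of 0.03 (limma adjusted p = 0.975). The receptors Pdgfra and Pdgfrb were present in all libraries of the sort. Of the 12 markers, 5 had a mean below 1 FPKM, Rgs5 and Col14a1 among them, and none was at 0 in every library.

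The 15 leukocyte markers, with Ptprc (CD45) at 1.50 FPKM, Csf1r at 3.98 and Lyz2, C1qb and C1qa at 107, 30.3 and 29.1 FPKM on average, summed to 171 to 197 FPKM in Mock. In HIF-KD they summed to 107, 125 and 578 FPKM, so HIF-KD 1 and HIF-KD 2 lay below all Mock libraries and HIF-KD 3 above. Of 14 tested, 0 passed at either limit in limma with all libraries (0.391% and 12.7% of all genes). With 1 library left out, the log2 fold change ran from -1.12 to 0.16 for C1qa and from -0.43 to 0.75 for Lyz2. The 7 smooth muscle markers summed to between 17.8 and 56.2 FPKM in Mock and between 24.5 and 39.0 in HIF-KD, led by Smtn, Acta2 and Actg2, with Myh11 at 0.0130 FPKM on average. Of 5 tested, 0 had a p below 0.05 in limma.

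The 7 endothelial markers summed to between 5.44 and 6.46 FPKM in Mock and between 3.85 and 5.45 in HIF-KD. Of 3 tested, 2 had a log2 fold change above 0, Tek with 1.26 (limma adjusted p = 0.484) and Pecam1 (CD31) with 0.26 (limma adjusted p = 0.830). Cdh5 was lower at an unadjusted p below 0.05 (log2 fold change -0.84, limma adjusted p = 0.294). The 4 mesothelial markers summed to between 58.8 and 86.6 FPKM in Mock and between 5.45 and 34.3 in HIF-KD, nearly all of it Msln, while Upk3b, Lrrn4 and Wt1 were near 0. Msln, the only one tested, had 4685, 2975 and 4122 normalized counts in the Mock libraries against 284.7, 1036 and 1714 in the HIF-KD libraries. Every HIF-KD library was below every Mock library, and the log2 fold change was -2.27 (SE 0.55, unadjusted p = 0.00283, adjusted p = 0.210 in limma). The 9 epithelial markers summed to between 1.44 and 15.2 FPKM in Mock and between 1.74 and 3.20 in HIF-KD. The highest value was that of Mock 3, where Krt8 had 190.9 and Krt19 had 120.8 normalized counts. Cdh1 had a log2 fold change of -0.74 (limma adjusted p = 0.515). The part of any of these cells in the counts of the matrix genes was not tested.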

How the data were processed

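RNA of sorted MC-38GFP tumor cells was analyzed in 6 libraries, 3 Mock and 3 HIF-KD, grouped by their titles. Per the paper's methods, poly-A RNA was read from one end, aligned with STAR and counted with featureCounts, and the submitters' notes name STAR, edgeR and the mouse build GRCm38. Tool versions are not given in the sources used here. The authors deposited, per gene, normalized counts (a signal value, the count divided by 1 factor per library), FPKM and a gene length. Columns of the authors' own comparison (log2 ratio, p-value, FDR and cluster) were not used, and 0 columns belonged to other samples.

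Whole reads were recovered from the normalized counts: 100% of the values up to 300 reads came out whole within 0.1 reads, and higher values hold 4 digits. Genes that passed filterByExpr (minimum count of 10, by group) were compared with limma 3.58.1 (trend, two-sided) on log2(normalized count + 1), where the added 1 shrinks a low gene's difference and the fold is one of means of logs, which a single low library can widen, and p-values were adjusted by Benjamini-Hochberg over 12014 genes. Intervals and limits on read counts cover counting error only. Alternatives were edgeR 4.0.16 and DESeq2 1.42.0 on the recovered reads, limma without the trend, TMM scaling, FPKM scaling, pseudocounts of 0.1 and 10, no filter, a replicate block and leaving out each library. FPKM per merged exon length was added after the data were seen.

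The genes and lists were chosen with earlier results of these data known. Named are the 10 genes, Hif1a, from each list of related genes those at an adjusted p below 0.05 and the 3 with the smallest p, and from each marker list the 3 with the highest FPKM and the first 2. Outside this rule, Cspg4, Rgs5, Dpt and Col14a1 were named after their values were seen. The scripts were tested on simulated data. The software was R 4.3.3 and Python 3.11.15 with scipy 1.17.1, matplotlib 3.10.9, numpy 2.4.6 and pandas 2.3.3.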

Additional observations from a re-analysis of the deposited data

How the results depend on the processing

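The count of matrix genes at an adjusted p below 0.05 was 0 under all 15 alternatives, and the smallest adjusted p was 0.218 (Tnc, DESeq2). The count at an unadjusted p below 0.05, 1 in the reported test, was 0 with edgeR and with limma without the trend, 2 with DESeq2, 2 with FPKM scaling and 2 with the replicate block (Tnc and Postn), and 0 to 3 with each library left out. The count of genes whose groups do not overlap, 0 with all libraries, was 0 to 3 with each library left out. The count over the 6 lists of related genes, 1 in the reported test, was 0 with edgeR, 0 without the trend, 0 with the replicate block, 2 with DESeq2 and 0 to 0 with each library left out. The median log2 fold change of the 9 genes stayed above 0, between 0.12 and 0.44 with each library left out. Of 135 single values, 127 kept their sign and 8 reversed, in 4 genes: Lum was 0.31 with edgeR, 0.32 with DESeq2 and -0.97 to 0.44 with each library left out, Fn1 -0.21 to 0.33, Bgn -0.40 to 0.091 and Fbn1 -0.21 to 0.70 (the cause was not tested). Postn kept its sign but moved from 1.81 to 1.21 with edgeR, 1.23 with DESeq2, 1.33 with FPKM scaling and 1.07 with a pseudocount of 10. The labels do not say whether the replicate numbers pair the samples. Deviations of same-numbered libraries from their group means correlated with r = -0.14, -0.12 and 0.02, and those of Mock 1 and HIF-KD 2 with 0.16. These correlations cannot decide the pairing, because the deviations sum to 0 within each group. Over all genes, the 47 calls at an adjusted p below 0.05 became 283 with DESeq2, 1 without the trend and 0 with the replicate block. With edgeR and with TMM scaling there were 47 each. The count was 2 without Mock 1, 11 without Mock 2, 0 without Mock 3, 38 without HIF-KD 1, 0 without HIF-KD 2 and 8 without HIF-KD 3. The 3 limma fits with 0 calls had 1324 (replicate block), 1444 (without Mock 3) and 1069 (without HIF-KD 2) genes at an unadjusted p below 0.05. Read counts were low for Eln and Postn, which had 0 to 9 and 1 to 111 reads.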
